A study of Mus musculus with 18 samples.

Results

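A set of 7 genes that hold mouse oocytes in meiotic arrest or release them from it was followed through 18 RNA libraries of early embryos: Mos, Fbxo43, Wee2, Cdc25b, Ccnb3, Gpr3 and Pde3a. They were taken by symbol, 7 of the 55098 genes with a unique symbol in the files, and all 7 passed the filter on low values in both experiments. The series concerns crotonylation of histones, a modification of their lysines, and holds an siRNA experiment and a treatment experiment. In the siRNA experiment embryos carried a control siRNA (siCon) or an siRNA against Echs1 (siEchs1), the mitochondrial enoyl-CoA hydratase that consumes crotonyl-CoA, and the labels give the stages E2C and L2C, so that there are 4 groups of 3 libraries. In the treatment experiment wild-type (WT) zygotes received DMSO, sodium acetate or sodium crotonate and were taken at the early 2-cell stage (E2C), in 3 groups of 2 libraries. The labels give no dose, no strain and no genotype for the siRNA embryos, and they do not spell out L2C. Each library came from a tube of 5 to 10 embryos, and whether replicates came from separate matings or cultures is not stated in the labels. A p-value here therefore covers the spread between the libraries alone, and that spread may be technical.

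A fully grown mammalian oocyte waits in prophase of meiosis with cyclic AMP kept high, which holds protein kinase A on and the CDK1-cyclin B kinase (maturation promoting factor, MPF) off. GPR3 is the receptor that keeps cyclic AMP up and PDE3A is the phosphodiesterase that breaks it down, while WEE2 places and CDC25B removes the inhibitory phosphate on CDK1. After the first division, in which cyclin B3 promotes anaphase, the egg waits again at metaphase of the second division, where MOS drives the MAP kinase cascade and FBXO43 (EMI2) blocks the anaphase-promoting complex (APC/C). Many messages of this kind are stored in the egg and removed once the embryo starts to transcribe its own genome.

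The members are separate genes spread over 5 chromosomes (mm10, GENCODE M21 annotation). Mos (ENSMUSG00000078365.5) is a single exon of 1449 nt at chr4:3870657-3872105 on the minus strand, so spliced and unspliced copies look alike. Gpr3 (ENSMUSG00000049649.8) lies at chr4:133209340-133212536 on the minus strand and Fbxo43 (ENSMUSG00000048230.6) at chr15:36150060-36164884 on the minus strand. Wee2 (ENSMUSG00000037159.11) spans chr6:40439088-40466813 on the plus strand, Pde3a (ENSMUSG00000041741.10) chr6:141249269-141507448 on the plus strand and Cdc25b (ENSMUSG00000027330.16) chr2:131186949-131198497 on the plus strand. Ccnb3 (ENSMUSG00000051592.14) spans chrX:6979652-7041619 on the minus strand. Exons of Gpr3, Cdc25b and Pde3a overlap a gene on the opposite strand (Cd164l2, Spef1 and Gm28523), and the protocol in the labels describes no step that keeps strand.

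Stored egg messages are controlled through their 3′ ends, where the poly(A) signal AATAAA or ATTAAA and the cytoplasmic polyadenylation elements (CPE) TTTTAT and TTTTAAT lie. The last 100 bases of the longest annotated transcript were searched on the sense strand. The 30 bases around the poly(A) signal nearest the transcript end are printed for 5 members, because they differ in what stands next to it. Only that signal is in capitals.
Mos: gggcatatttttaggaAATAAAgttaccac
Fbxo43: aaaattaaaactaataATTAAAtttaaaat
Wee2: aatccagatcattgtaAATAAAgattttat
Cdc25b: ttgggggccttggttcAATAAAgcactgag
Ccnb3: tttgtttaaaaaatttAATAAAatacaatg
Over 19793 genes searched in the same way 64.64% hold AATAAA and 20.45% hold ATTAAA, the form shown for Fbxo43. Fbxo43 holds a further ATTAAA inside the stretch shown, not in capitals, which starts 39 bases before the transcript end. Pde3a holds neither in this window. A CPE was found in Wee2 and Ccnb3, and 17.78% of all genes searched hold either element. In Wee2 TTTTAT starts 18 bases before the transcript end, inside the stretch shown, and TTTTAAT starts 46 bases before it. In Ccnb3 TTTTAT starts 68 bases before the end. A match is a description of letters and no match says only that these letters are not in this window.

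Upstream sequence is shown for the member whose level moved most between stages, Gpr3, and for the one whose level moved least over the siRNA libraries, Wee2. Both stretches are the 250 bases before the RefSeq start (GRCm38.p6), Gpr3 at chr4:133212537-133212786 on the minus strand and Wee2 at chr6:40442613-40442862 on the plus strand, with matches to the searched motifs in capitals.
Gpr3: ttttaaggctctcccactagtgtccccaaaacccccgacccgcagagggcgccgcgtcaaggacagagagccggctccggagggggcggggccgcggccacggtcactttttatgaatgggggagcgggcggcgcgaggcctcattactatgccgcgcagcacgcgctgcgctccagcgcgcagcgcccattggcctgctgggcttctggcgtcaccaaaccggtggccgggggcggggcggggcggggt
Wee2: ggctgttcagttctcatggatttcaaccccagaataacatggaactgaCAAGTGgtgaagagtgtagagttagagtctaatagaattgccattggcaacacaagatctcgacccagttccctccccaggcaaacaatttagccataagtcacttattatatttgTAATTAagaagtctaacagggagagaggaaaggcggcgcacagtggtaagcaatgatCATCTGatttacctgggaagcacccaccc
These are unlike in base composition, with 70.8% G or C before Gpr3 and 44.4% before Wee2, against a median of 52.4% over all RefSeq promoters of that length. Motifs were searched on both strands, and their shares are over 32851 promoters of that length. The E-box CANNTG, which FIGLA binds, was held by 66.22%. NOBOX was represented by TAATTG, which 7.17% of promoters held, and by its variant TAATTA, which 4.84% held. The LHX8 motif TGATTG was held by 12.68% and the TATA box TATAAA by 12.37%. Wee2 holds CANNTG at 202 and 29 bases before the start and TAATTA at 86 bases before it. Gpr3 holds none of them. The RefSeq start of Wee2 lies inside the GENCODE gene span given above, not at its first base. The promoter table held 4 of the 7 members (the other two were Cdc25b and Ccnb3).

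Values are FPKM, fragments scaled by exon length and by all mapped fragments, which puts genes on a common scale. The lengths used are not given and capture may differ between genes, so levels of different genes compare only roughly. Depth is unknown, since the files hold no counts and low values showed no clear steps of whole fragments with the annotated exon lengths. Echs1 lay at 0.71 to 5.88 FPKM in the 6 siEchs1 libraries and at 24.4 to 42.6 FPKM in the other 12. Mitochondrially encoded transcripts took 13.1% to 17% of the FPKM total in siCon E2C, 7.58% to 11.2% in siCon L2C and 0.83% to 2.27% in siEchs1 L2C. In siEchs1 E2C they took 2.82%, 1.69% and 10.3% in replicates 1 to 3, and replicate 3 stood apart from the others of its group (Spearman rho across genes 0.668 and 0.718, against 0.90 between replicates 1 and 2). Of 13 markers of the 2-cell embryo, 12 or 13 had a group mean of 1 FPKM or more in each of the 7 groups. Their sum was lower with siEchs1 than with siCon, without overlap. At E2C it was 818 to 1141 FPKM against 2124 to 2239 FPKM. At L2C it was 448 to 610 FPKM against 1322 to 1886 FPKM. Not every marker went with the sum. Mean Eif1ax was 45.8 FPKM in siCon and 125 FPKM in siEchs1 at E2C, and 23.3 and 178 FPKM at L2C. Mean Obox6 was 169 and 12.4 FPKM at E2C, and 437 and 17.8 FPKM at L2C. With DMSO, acetate and crotonate the sum was 225 to 385, 338 to 532 and 456 to 500 FPKM. The part of the lower siEchs1 sum in the siRNA results for Mos, Pde3a and Fbxo43 was not tested. In these bulk libraries fewer cells and less RNA per cell cannot be told apart.

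Among the siRNA libraries Wee2 was the most abundant member in every group except siEchs1, where Mos passed it in 5 of 6 libraries. In siCon L2C Mos, Ccnb3 and Pde3a were the lowest members, at 1.75 to 6.26 FPKM, and in siCon E2C they and Gpr3 lay together at 2.91 to 7.42 FPKM. The plot of levels by library shows that the members do not share 1 pattern: Mos and Pde3a separated by siRNA, Gpr3 by stage, and Wee2 by neither.

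**Figure D1:**
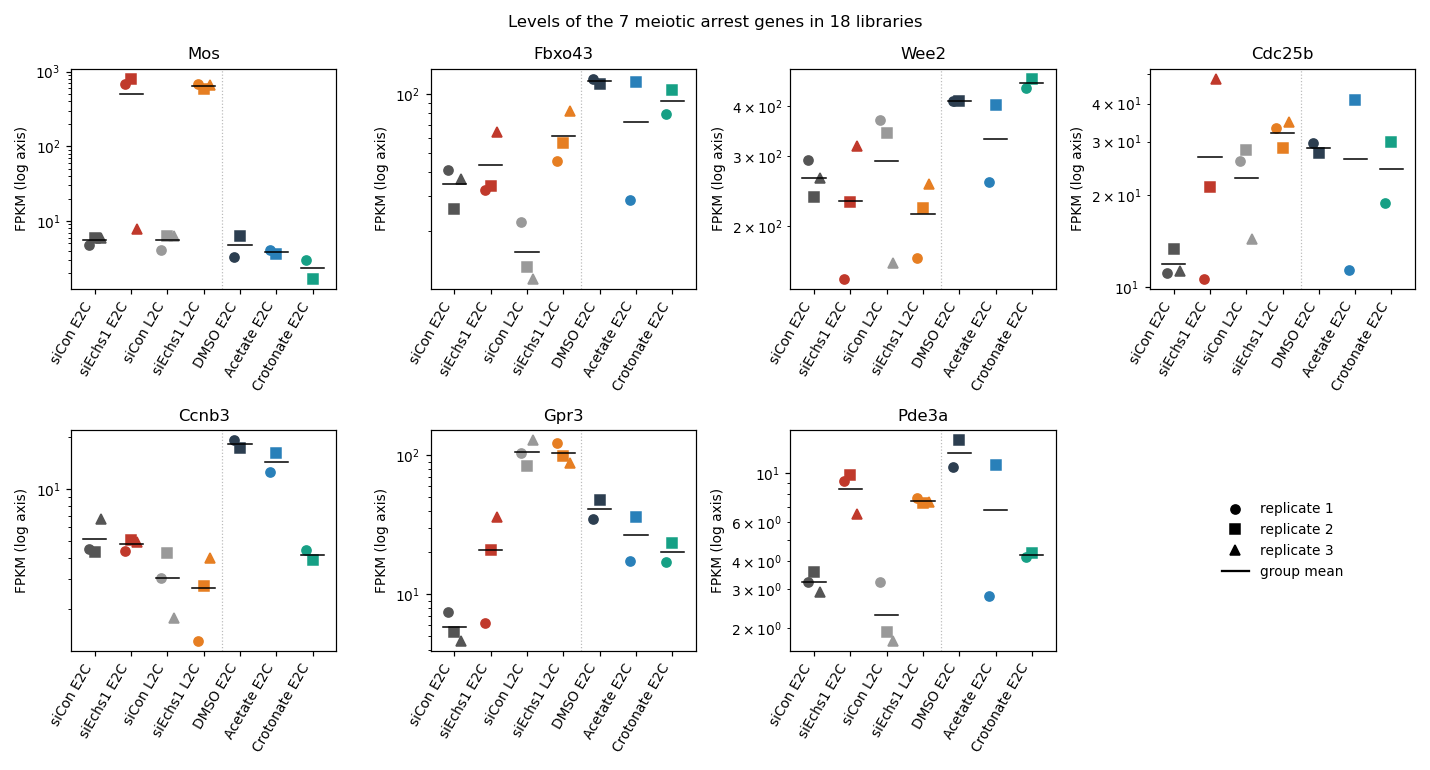
FPKM of each of the 7 genes on a log axis (vertical) in the 7 groups (horizontal), with 1 point per library, its shape giving the replicate, and a bar at the group mean. Mos lies at 589 to 808 FPKM in 5 siEchs1 libraries and at 1.67 to 7.70 FPKM in the 13 others, while Wee2 stays between 148 and 470 FPKM throughout.

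The cyclic AMP arm was read first, beginning with the receptor Gpr3. In siCon E2C it stood at 7.42, 5.34 and 4.63 FPKM, and in siCon L2C at 105, 84.0 and 128 FPKM. In siEchs1 it stood at 6.23, 20.7 and 35.9 FPKM at E2C and at 123, 98.2 and 88.3 FPKM at L2C. All 6 L2C libraries lay above all 6 E2C libraries, and the 2 siRNA groups of L2C overlapped. Gpr3 rose from E2C to L2C in siCon embryos (5.80 ± 1.45 to 105 ± 21.8 FPKM, SD, n = 3) by 3.97 on the log2(FPKM + 1) scale (SE 0.49, limma adjusted p = 4.44e-05). Of the 7 members, 1 rose and 1 fell in this comparison, against 35.8% and 14.4% of all genes tested, and libraries of the stages did not overlap for 4 members against 63.8% of all genes. In siEchs1 embryos Gpr3 rose by 2.52 (SE 0.49, limma adjusted p = 0.00531), the 1 member called there, against 11.8% of all genes called higher and 2.73% called lower, and the libraries did not overlap for 2 members, against 31.0%. That call ended when the compared libraries were fitted alone (adjusted p = 0.0534).

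At E2C the 3 siEchs1 libraries were spread for Gpr3: replicate 1 lay within the siCon range and replicates 2 and 3 above it. The log2 difference from siCon was 1.42 (95% interval 0.37 to 2.48), which did not pass (limma adjusted p = 0.0558). It passed without siEchs1 E2C replicate 1 (2.08, adjusted p = 0.00343) and with values rescaled without mitochondrial and ribosomal RNA (1.70, adjusted p = 0.0444). At L2C the difference was -0.02 (95% interval -1.08 to 1.03). The difference between these effects was -1.45 (95% interval -2.94 to 0.04, limma adjusted p = 0.159), and it passed without siEchs1 E2C replicate 1 (-2.11, adjusted p = 0.011). Exons of Gpr3 overlap the span of Cd164l2 on the other strand. Cd164l2 stood at 90.1 to 95.3 FPKM in siCon E2C and at 460, 879 and 165 FPKM in siEchs1 E2C. At L2C it stood at 144 to 234 FPKM in siCon and at 692 to 1068 FPKM in siEchs1. Its order of groups was thus not that of Gpr3. Whether exons of both genes coincide was not examined, and reads in any such stretch cannot be told apart. Gpr12, the related receptor, had group means of 0.41 to 0.96 FPKM in the 4 siRNA groups.

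Pde3a, the oocyte phosphodiesterase that lowers cyclic AMP, differed by siRNA at both stages. Its stage difference did not pass in siCon (-0.38, limma adjusted p = 0.305) but was called lower at L2C with quantile normalization (-1.08, adjusted p = 0.00844). In siCon it stood at 3.21, 3.58 and 2.91 FPKM at E2C and at 3.21, 1.93 and 1.75 FPKM at L2C. In siEchs1 it stood at 9.20, 9.73 and 6.51 FPKM at E2C and at 7.74, 7.31 and 7.38 FPKM at L2C. All 6 siEchs1 libraries lay above all 6 siCon libraries, replicate 3 of siEchs1 E2C included. Pde3a rose with siEchs1 at E2C (3.23 ± 0.34 to 8.48 ± 1.73 FPKM, SD, n = 3, log2 change 1.15, SE 0.30, limma adjusted p = 0.0181). At L2C it rose again (2.30 ± 0.80 to 7.48 ± 0.23 FPKM, log2 change 1.39, SE 0.30, limma adjusted p = 0.00235). The E2C call ended when any 1 of the siCon E2C libraries was left out (adjusted p = 0.0561, 0.0516 and 0.0743 for replicates 1 to 3), without siEchs1 E2C replicate 2 (0.0696) and with the E2C groups fitted alone (0.0638). Gm28523, the antisense gene that overlaps Pde3a, did not exceed 1.94 FPKM.

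The kinase and phosphatase that act on CDK1 came next. Wee2, the oocyte form of WEE1, stood at 293, 237 and 265 FPKM in siCon E2C and at 148, 230 and 318 FPKM in siEchs1 E2C. At L2C it stood at 370, 342 and 162 FPKM in siCon and at 166, 223 and 255 FPKM in siEchs1. The 4 groups overlapped at each step of their order. None of the 6 siRNA comparisons called Wee2, and its log2 difference with siEchs1 was -0.26 (95% interval -1.08 to 0.57) at E2C and -0.37 at L2C (adjusted p = 0.676 and 0.444 by limma). Its E2C interval reaches a loss of 1.08 on the log2 scale. Wee1, the somatic form, was far lower, at 1.78 ± 0.89 FPKM in siCon E2C and 11.7 ± 8.44 FPKM in siEchs1 E2C (SD, n = 3). Unlike Wee2 it was called higher with siEchs1 at E2C (log2 change 1.86, limma adjusted p = 0.034), although the libraries overlapped. That call ended in 5 of the 12 fits that left out 1 library, with no filter on low values (0.0893) and with the E2C groups fitted alone (0.12).

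Cdc25b, the phosphatase that opposes WEE2, stood at 11.1, 13.3 and 11.2 FPKM in siCon E2C and at 10.6, 21.3 and 48.3 FPKM in siEchs1 E2C. At L2C it stood at 25.9, 28.2 and 14.3 FPKM in siCon and at 33.2, 28.5 and 34.8 FPKM in siEchs1. In siEchs1 E2C the libraries thus ran from the siCon level to the highest value of any siRNA library, in replicate 3. Neither siRNA effect passed (log2 difference 0.86 at E2C, limma adjusted p = 0.198, and 0.53 at L2C, adjusted p = 0.356), and that at E2C passed without siEchs1 E2C replicate 1 (1.37, adjusted p = 0.0351). At L2C the siEchs1 libraries all lay above the siCon ones. The ratio of Wee2 to Cdc25b, which does not depend on how a library was scaled, was 26.4, 17.9 and 23.6 in siCon E2C and 13.9, 10.8 and 6.58 in siEchs1 E2C. At L2C it was 14.3, 12.1 and 11.3 in siCon and 5.02, 7.82 and 7.35 in siEchs1. Within each stage every siEchs1 library had a lower ratio than every siCon library, and no test was run on it (3 against 3 libraries cannot go below an exact p of 0.1). Such a separation was not particular to this pair. The ratios of Fbxo43 and of Pde3a to Wee2 were higher in every siEchs1 library than in every siCon library of the same stage. Those of Mos, Gpr3 and Ccnb3 to Wee2 did not separate at both stages. How often ratios of other genes separate is not given here. Spef1, on the strand opposite Cdc25b, did not exceed 1.41 FPKM.

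Ccnb3, cyclin B3, was low throughout the siRNA experiment. In E2C libraries it stood at 4.49, 4.30 and 6.68 FPKM in siCon and at 4.35, 5.07 and 4.95 FPKM in siEchs1. In L2C libraries it stood at 3.05, 4.24 and 1.79 FPKM in siCon and at 1.31, 2.72 and 4.0 FPKM in siEchs1. The 6 E2C libraries all lay above the 6 L2C libraries, by a narrow margin, and the siRNA groups overlapped at both stages. From E2C to L2C its log2 difference was -0.64 (95% interval -1.43 to 0.15, limma adjusted p = 0.165) in siCon and -0.72 (95% interval -1.52 to 0.07, adjusted p = 0.223) in siEchs1. With quantile normalization it was called lower in siCon (-1.39, adjusted p = 0.00616). That setting removes a shift of the median gene of 0.51 on the log2 scale between these stages.

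The cytostatic factor genes hold the egg at its second arrest, and Mos differed most of all members. In siCon it stood at 4.80, 5.89 and 5.96 FPKM at E2C and at 4.03, 6.25 and 6.26 FPKM at L2C. In siEchs1 it stood at 676, 808 and 7.70 FPKM at E2C and at 683, 589 and 673 FPKM at L2C. The high siEchs1 libraries, 5 of 6, lay at 589 FPKM or more against at most 6.26 FPKM in siCon, and replicate 3 of siEchs1 E2C lay just above that siCon maximum. Mos rose with siEchs1 at L2C (5.51 ± 1.29 to 648 ± 52.0 FPKM, SD, n = 3, log2 change 6.66, SE 1.24, limma adjusted p = 0.000942). Of the 7 members, 3 rose and 0 fell at L2C, against 21.9% and 26.9% of all genes tested, and the libraries did not overlap for 4 members, against 63.1% of all genes. At E2C, 2 members rose and 0 fell, against 11.0% and 9.31% of all genes, and the libraries did not overlap for 2 members, against 34.5%. The E2C value of Mos joined 2 high libraries and 1 low one (log2 change 4.69, 95% interval 2.01 to 7.37, limma adjusted p = 0.0196). Without replicate 3 it was 6.82 (adjusted p = 7.54e-09), without replicate 1 it was 3.68 (0.0645), without replicate 2 it was 3.56 (0.0866), and without siCon E2C replicate 1, 2 or 3 the adjusted p was 0.0588, 0.0577 and 0.059. The call also ended with no filter on low values (0.0618) and with the E2C groups fitted alone (0.0915).

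Fbxo43, the APC/C inhibitor EMI2, stood at 41.0, 25.7 and 37.0 FPKM in siCon E2C and at 32.2, 33.7 and 64.0 FPKM in siEchs1 E2C. At L2C it stood at 22.1, 13.1 and 11.3 FPKM in siCon and at 45.3, 56.0 and 82.6 FPKM in siEchs1. All siEchs1 L2C libraries lay above all siCon L2C libraries, while the E2C groups overlapped. Fbxo43 rose with siEchs1 at L2C (15.5 ± 5.81 to 61.3 ± 19.2 FPKM, SD, n = 3, log2 change 1.93, SE 0.38, limma adjusted p = 0.00143). In siCon it fell by 1.14 on the log2 scale from E2C to L2C (limma adjusted p = 0.0255), and in siEchs1 the stage difference was 0.52 (95% interval -0.31 to 1.35, adjusted p = 0.426). The fall in siCon was lost with values rescaled without mitochondrial and ribosomal RNA (-0.81, adjusted p = 0.147), with no filter on low values (0.0515) and without siCon E2C replicate 1 or 3 or siCon L2C replicate 2 or 3 (0.088, 0.0769, 0.078 and 0.0877). The siRNA effect on Fbxo43 differed between stages by 1.66 (95% interval 0.48 to 2.83), just outside the threshold (limma adjusted p = 0.0523). It passed without siEchs1 E2C replicate 3 (1.97, adjusted p = 0.011), without siCon L2C replicate 1 (1.93, 0.0453) and with quantile normalization (1.97, 0.0365). For this difference of effects 0 of the 7 members passed, against 17.2% of all genes. An unadjusted p under 0.05 was found for 1 member (Fbxo43), and the share of all genes under that unadjusted threshold is not given here.

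**Figure D2:**
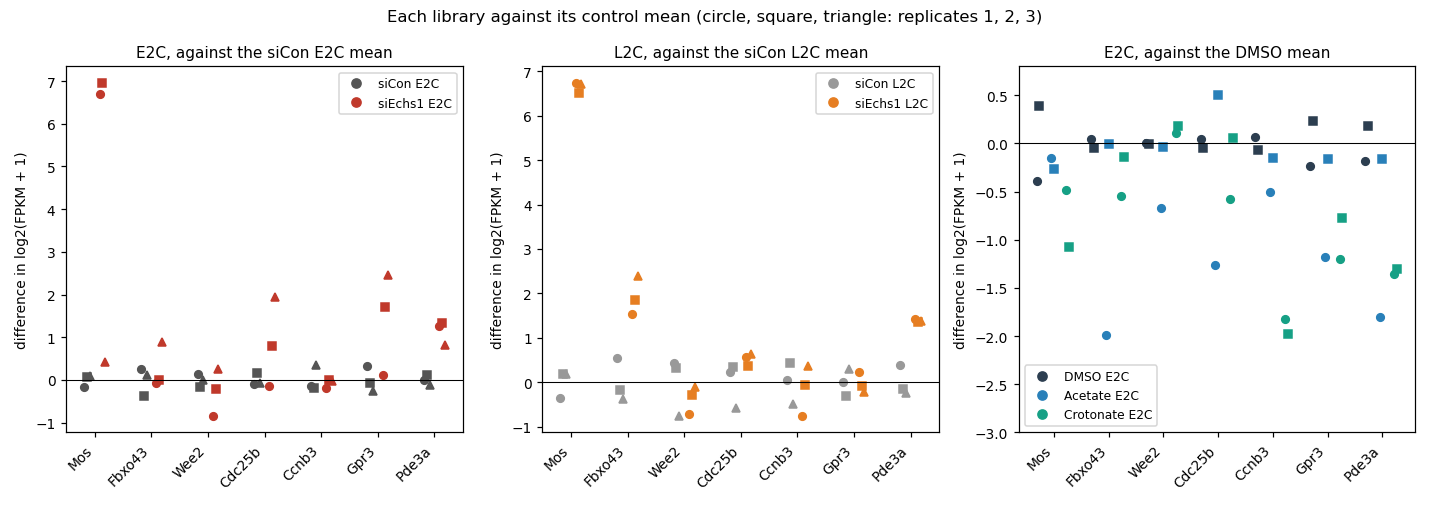
Difference of each library from the mean of its control group in log2(FPKM + 1) (vertical) for the 7 genes (horizontal), for E2C siRNA, L2C siRNA and treatment libraries from left to right. Replicate 3 of siEchs1 E2C (red triangle) lies near the siCon libraries for Mos but is the highest of the 3 siEchs1 E2C libraries for Fbxo43, Wee2, Cdc25b and Gpr3.

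The library that stood apart did so gene by gene. Replicate 3 of siEchs1 E2C had the lowest Mos and the lowest Pde3a of its group and the highest Fbxo43, Wee2, Cdc25b and Gpr3. Its 15 oocyte markers summed to 10007 FPKM, against 22100 and 27325 FPKM in replicates 1 and 2, 13780 to 16165 FPKM in siCon E2C, 2083 to 3615 FPKM in siCon L2C and 21181 to 27864 FPKM in siEchs1 L2C. The 5 libraries high in Mos thus had the 5 highest sums, and the part of oocyte messages in the Mos result was not tested. The markers did not all go with the sum. Oosp1 led it in siCon E2C, at 6525 to 7506 FPKM, and H1foo in siEchs1 E2C, at 607 to 6098 FPKM. Mean Btg4 was 5441.5 FPKM in siCon and 2711.6 FPKM in siEchs1 at E2C, and 816 and 1393 FPKM at L2C. Mean Bmp15 was 855 and 1049 FPKM at E2C, and 306 and 763 FPKM at L2C. Pde3a in replicate 3, at 6.51 FPKM, was above every siCon E2C library although its marker sum was below theirs. Markers of cumulus and granulosa cells summed to at most 18.1 FPKM in every siRNA library outside siCon L2C, where they summed to 100 to 148 FPKM. Amhr2 alone gave 91.8 to 145 FPKM of that, and the other 13 genes of the list summed to 2.65 to 8.73 FPKM. Blood markers summed to 59.7 to 125 FPKM in the 6 siCon libraries and to 2.74 to 18.7 FPKM in the 6 siEchs1 libraries, nearly all of it in siCon from the alpha globins Hba-a1 and Hba-a2, and the part of these differences in the results was not tested.

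Setting siEchs1 L2C against siCon E2C compares the late siEchs1 embryos with the earlier control stage. Of the 7 members 4 were higher (Mos, Gpr3, Pde3a and Cdc25b) and 0 lower, against 31.5% and 15.7% of all genes, and the libraries did not overlap for 6 members, against 66.4%. The log2 differences were 6.63 for Mos (limma adjusted p = 0.000894), 3.94 for Gpr3 (5.11e-05), 1.36 for Cdc25b (0.026) and 1.00 for Pde3a (0.0148). Late siEchs1 libraries thus overlapped late siCon libraries in Gpr3, while Mos and Pde3a lay above both siCon groups. The call of Cdc25b ended with quantile normalization (0.68, adjusted p = 0.253), without any 1 siCon E2C library (0.0509 to 0.0699), without siEchs1 L2C replicate 1 or 3 (0.0674 and 0.0704) and with no filter (0.062). That of Pde3a ended with quantile normalization (0.44, 0.227) and without siCon E2C replicate 3 (0.0552). With quantile normalization the count was thus 2 higher and 1 lower, since Ccnb3 was then called lower (-1.30, adjusted p = 0.00931). Fbxo43 was called higher after rescaling without mitochondrial and ribosomal RNA (1.16, adjusted p = 0.0473), with the compared libraries alone (0.79, 0.0273) and without siEchs1 E2C replicate 3 (0.0442).

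**Figure D3:**
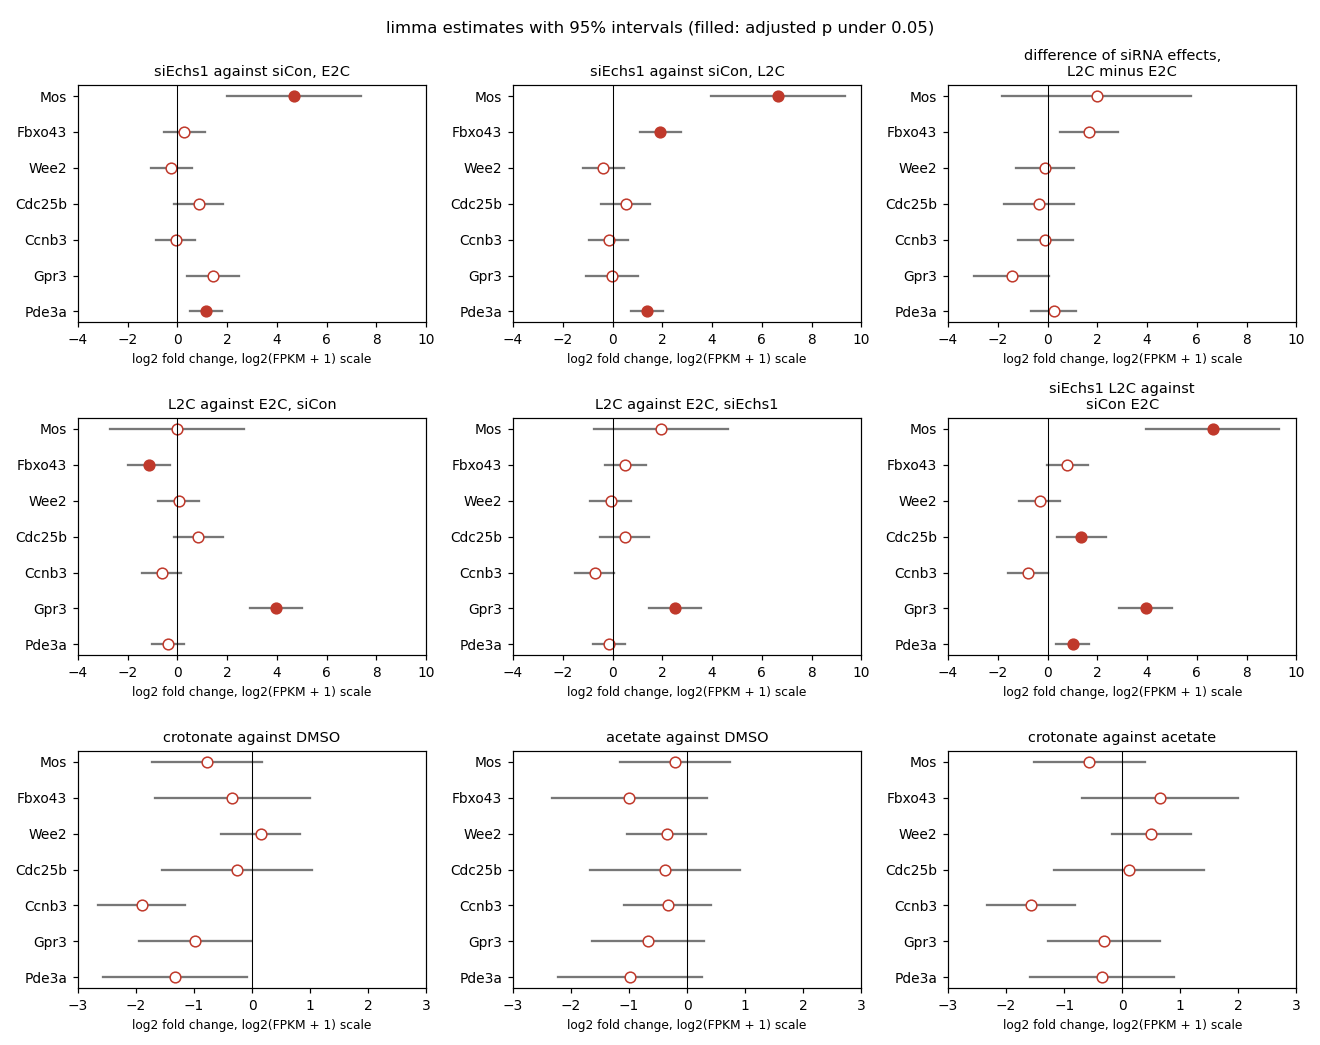
limma log2 fold changes on the log2(FPKM + 1) scale (horizontal) with 95% intervals for the 7 genes (vertical) in 9 comparisons, filled where the adjusted p is under 0.05. Mos has the widest intervals of the siRNA comparisons, Gpr3 is filled in both stage comparisons, and no circle is filled in the treatment comparisons or in the difference of siRNA effects.

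In the treatment experiment Ccnb3 had the smallest adjusted p of the members for crotonate against DMSO. It stood at 19.2 and 17.4 FPKM in the DMSO libraries, 12.5 and 16.3 FPKM with acetate and 4.43 and 3.88 FPKM with crotonate. The crotonate libraries thus lay below the 4 others. They also lay below the 4 others for Mos and above them for Wee2. What share of all genes separates crotonate in this way is not given here. For Ccnb3 the log2 difference of crotonate from DMSO was -1.90 (95% interval -2.66 to -1.15). It missed the threshold after adjustment over 13789 genes (limma adjusted p = 0.055). Against acetate it was -1.57 (95% interval -2.32 to -0.82, limma adjusted p = 0.0591). The former passed without acetate replicate 1 (adjusted p = 0.0157), without acetate replicate 2 (0.0182) and with the 4 libraries fitted alone (0.0173). The latter fell under the threshold in the same 2 fits (0.0288 and 0.0369), but each of these leaves 1 acetate library, whose spread is assumed to be that of the other groups. The ratio of Ccnb3 to Wee2 was 0.0465 and 0.0422 in DMSO and 0.00993 and 0.00826 in crotonate, a gap that does not depend on how a library was scaled. Mitochondrial transcripts took 12.2% and 13.4% of the total in DMSO, 20.6% and 11.9% in acetate and 19.8% and 16.7% in crotonate.

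Pde3a and Gpr3, the cyclic AMP pair, were lower in both crotonate libraries than in either DMSO library. Pde3a stood at 10.7 and 14.0 FPKM in the DMSO libraries, 2.78 and 10.8 FPKM with acetate and 4.18 and 4.37 FPKM with crotonate. Its log2 difference of crotonate from DMSO was -1.32 (95% interval -2.57 to -0.08, limma adjusted p = 0.276). It passed without acetate replicate 1 (adjusted p = 0.0352), without acetate replicate 2 (0.0401) and with the crotonate and DMSO libraries fitted alone (0.036). Gpr3 stood at 34.5 and 47.9 FPKM in the DMSO libraries, 17.5 and 36.2 FPKM with acetate and 17.2 and 23.5 FPKM with crotonate, with a log2 difference of -0.98 (95% interval -1.95 to -0.02, adjusted p = 0.292). For both genes 1 acetate library was as low as crotonate and the other near DMSO. Of the 7 members 0 passed for crotonate against DMSO, against 0.529% of all genes, and 3 had an unadjusted p under 0.05 (Ccnb3, Gpr3 and Pde3a). The share of all genes under that unadjusted threshold is not given here, so no excess can be read from this count. The crotonate and DMSO libraries did not overlap for 6 of the 7 members, against 57.6% of all genes.

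The other four members gave no call in this experiment. Mos was low in all 6 libraries, at 3.30 and 6.34 FPKM in the DMSO libraries, 4.07 and 3.66 FPKM with acetate and 3.03 and 1.67 FPKM with crotonate. Its log2 difference of crotonate from DMSO was -0.78 (95% interval -1.73 to 0.18). Fbxo43 stood at 120 and 113 FPKM in the DMSO libraries, 28.6 and 116 FPKM with acetate and 79.4 and 106 FPKM with crotonate (log2 difference -0.34, 95% interval -1.68 to 0.99). Wee2 stood at 413 and 412 FPKM in the DMSO libraries, 259 and 402 FPKM with acetate and 446 and 470 FPKM with crotonate (0.15, 95% interval -0.53 to 0.83). Cdc25b stood at 29.7 and 27.6 FPKM in the DMSO libraries, 11.4 and 41.2 FPKM with acetate and 18.9 and 29.9 FPKM with crotonate (-0.26, 95% interval -1.55 to 1.04).

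Acetate, a saturated short-chain acid salt beside the longer and unsaturated crotonate, was the other compound, and whether their doses matched is not stated in the labels. For acetate against DMSO 0 of the 7 members passed, against 0.0653% of all genes, none had an unadjusted p under 0.05, and the libraries did not overlap for 2 members, against 34.8%. The smallest adjusted p was 0.784. Acetate replicate 1 held the lowest Fbxo43, Wee2, Cdc25b and Pde3a of the treatment experiment. Without acetate replicate 2 it is the 1 acetate library left, assumed to vary like the other groups, and the calls then made restate its low values: Fbxo43 (-1.99, adjusted p = 0.0354) and Pde3a (-1.81, 0.0394) lower than in DMSO, and Fbxo43 (1.65, 0.031) and Wee2 (0.82, 0.0491) higher with crotonate than with acetate. For crotonate against acetate 0 of 7 passed, against 1.86% of all genes, 1 had an unadjusted p under 0.05 (Ccnb3), and the libraries did not overlap for 3 members, against 45.5%. Shares of all genes with an unadjusted p under 0.05 are not given here for either comparison. The 95% intervals of that difference ran from -0.18 to 1.18 for Wee2, from -0.68 to 1.99 for Fbxo43 and from -1.58 to 0.90 for Pde3a, so a 2-fold difference in 1 direction or more was left undecided for each of these. Crotonate and acetate were set against the same DMSO libraries.

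Around the members, 5 lists of other genes of these pathways were read in the same fits. They held 105 genes, of which 100 were tested in the siRNA experiment, and were chosen with earlier results of these data known. At E2C 23 of the 100 rose and 5 fell with siEchs1, against 11.0% and 9.31% of all genes. At L2C 23 rose and 16 fell, against 21.9% and 26.9%, so the share that rose there was near that of all genes. The E2C counts became 18 and 3 with quantile normalization and 33 and 3 after rescaling without mitochondrial and ribosomal RNA. In the list of MPF and CDK1 control 4 of 19 rose and 2 fell at E2C (median log2 difference 0.39, against 0.15 over all genes). The 2 that fell were the CDK partners Cks1b (2497 ± 233 to 939 ± 278 FPKM, log2 change -1.45, limma adjusted p = 0.00521) and Cks2 (-1.80, 0.00241), and both calls ended with quantile normalization (-0.86, adjusted p = 0.0823, and -0.77, 0.0821). Cdc25a, another CDK phosphatase, rose from 2.34 ± 0.68 to 9.44 ± 1.00 FPKM (SD, n = 3, 1.66, adjusted p = 0.00234). At L2C 3 of the 19 rose and 4 fell (median -0.29, against -0.08 over all genes), among them Cdc25c, the mitotic CDC25, which fell from 125 ± 40.0 to 11.1 ± 5.11 FPKM (-3.41, limma adjusted p = 0.000113), and cyclin B2, Ccnb2, which rose from 28.9 ± 4.11 to 118 ± 17.3 FPKM (1.99, 0.000267). Cdk1 and Ccnb1 gave no call at either stage, though Cdk1 was called at L2C with quantile normalization (adjusted p = 0.0319), with the L2C groups fitted alone (0.0276) and without siEchs1 E2C replicate 3 (0.0174).

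In the list from MOS to MAPK 4 of 13 rose and 1 fell at E2C (median 0.39), and 3 rose and 4 fell at L2C (median -0.10). Cpeb1, the protein that binds CPEs and controls the translation of Mos messages in oocytes, rose at E2C (8.87 ± 0.90 to 109 ± 87.6 FPKM, SD, n = 3, log2 change 3.00, limma adjusted p = 0.00464) and at L2C (22.2 ± 2.78 to 355 ± 20.1 FPKM, 3.95, 0.000258). Mapk3, a MAP kinase of this cascade, did not pass at either stage (0.87 and 0.57) but passed at E2C without siEchs1 E2C replicate 1 (adjusted p = 0.0209). Among 27 genes of the APC/C and the spindle checkpoint 8 rose and 1 fell at E2C (median 0.69), and 6 rose and 4 fell at L2C (median 0.55). Bub1b, the checkpoint kinase-like protein BUBR1, rose at both stages (3.30, limma adjusted p = 0.0107, and 4.22, 0.000786), as did Fzr1, the APC/C activator CDH1 (2.14, 0.00093, and 2.75, 7.42e-05). The E2C call of Bub1b ended with the E2C groups fitted alone (adjusted p = 0.0623). Fbxo5, the mitotic relative of Fbxo43, rose at E2C (29.2 ± 5.01 to 114 ± 61.9 FPKM, 1.73, 0.0165), and its L2C difference was 0.05 (0.933). The test of the difference between these effects did not pass (-1.68, limma adjusted p = 0.0809). Its E2C call ended without siCon E2C replicate 1 or 3 (0.056 and 0.065), without siEchs1 E2C replicate 2 (0.0739) and with the E2C groups fitted alone (0.0725).

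In the cyclic AMP and PKA list 4 of 23 rose and 0 fell at E2C (median 0.58), and 7 rose and 3 fell at L2C (median 0.08). Prkar1a, a regulatory subunit of PKA, rose at both stages (1.21, limma adjusted p = 0.0221, and 1.80, 0.000833). Its E2C call ended without siCon E2C replicate 2 or 3 (0.0851 and 0.0916), without siEchs1 E2C replicate 1 or 2 (0.0605 and 0.0773) and with the E2C groups fitted alone (0.074). Gnas, the G protein through which GPR3 acts, rose at L2C (65.6 ± 22.8 to 227 ± 5.89 FPKM, SD, n = 3, 1.84, 0.000581). Rgs2, a regulator of G-protein signalling, rose at L2C (19.1 ± 2.55 to 350 ± 112 FPKM, 4.08, 0.000313). For the 18 genes of egg activation, the calcium signal that ends the arrest, 3 rose and 1 fell at E2C (median 0.44) and 4 rose and 1 fell at L2C (median 0.17). Izumo1r, the egg receptor for sperm, rose at both (1.79, 0.00497, and 3.65, 4.9e-05). From E2C to L2C in siCon 44 of the 100 rose and 19 fell, against 35.8% and 14.4% of all genes, in a comparison whose median gene moved by 0.51. With quantile normalization, which removes that shift, 35 rose and 21 fell.

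**Figure D4:**
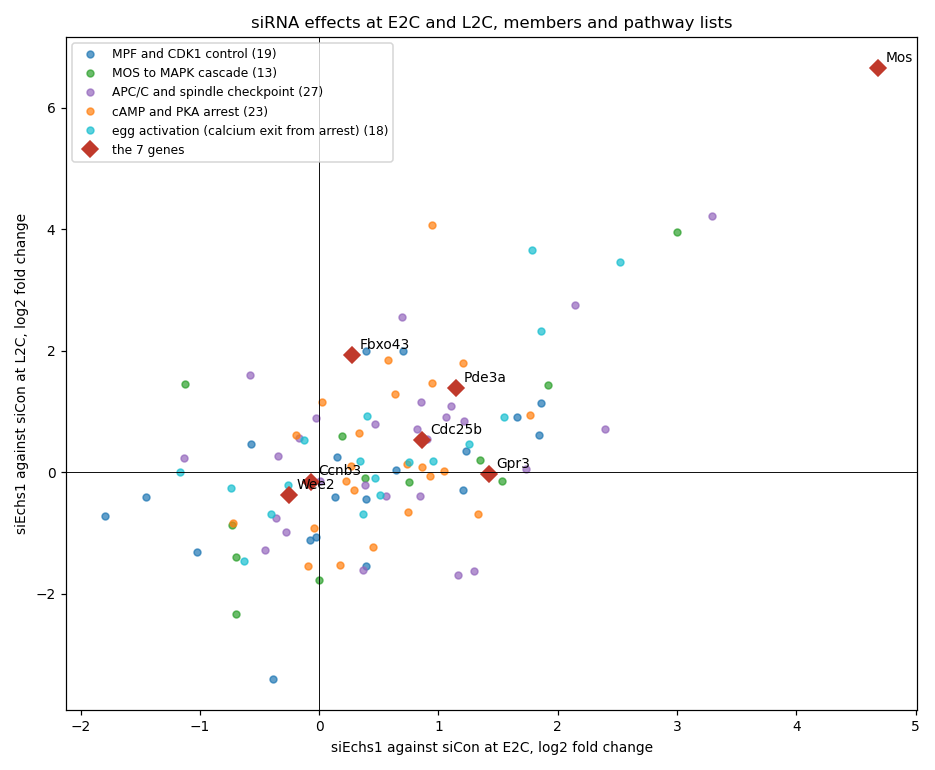
limma log2 fold changes of siEchs1 against siCon at E2C (horizontal) and at L2C (vertical) for the 7 genes (red diamonds) and 100 genes of 5 pathway lists (circles, by list). Mos lies alone at the upper right, at 4.69 and 6.66, and Wee2 and Ccnb3 lie near the origin.

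In the treatment experiment 0 of 92 tested genes of these lists passed in any of the 3 comparisons with limma. An unadjusted p under 0.05 was found for 18 for crotonate against DMSO, 3 for acetate against DMSO and 17 for the 2 compounds against each other. Without the shares of all genes under that threshold, which are not given here, these counts show no excess in the lists. Of the genes named by rule, Fbxo5 had the smallest adjusted p for crotonate against DMSO (log2 difference -2.22, limma adjusted p = 0.0669). It was called lower with the crotonate and DMSO libraries fitted alone (adjusted p = 0.0155). With quantile normalization 1 gene of the lists was called, higher with crotonate than with acetate.

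Genes with a pattern like that of Mos were sought over the 12 siRNA libraries, among 8595 protein-coding genes with a mean of at least 5 FPKM, by Pearson's r of log2(FPKM + 1). The 10 most like it were Mindy4 (r = 0.996), Zp2 (0.995), Pabpn1l (0.994), Tgfa (0.991), Zp3 (0.988), Bloc1s5 (0.987), Mob2 (0.985), Sgf29 (0.985), Gtf2a1l (0.984) and Il1rap (0.983), and 170 genes reached 0.95. Zp2 and Zp3 encode coat proteins of the egg. Zp2 stood at 1860, 1868 and 52.4 FPKM in siEchs1 E2C, 40.3 to 43.1 FPKM in siCon E2C, 36.8 to 52.9 FPKM in siCon L2C and 1137 to 1704 FPKM in siEchs1 L2C. The libraries fall into 2 clusters for these genes, 5 high and 7 low, so r mostly restates that split. Among the members Pde3a was most like Mos (r = 0.863 over 12 libraries), and Gpr3 was not (0.179).

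**Figure D5:**
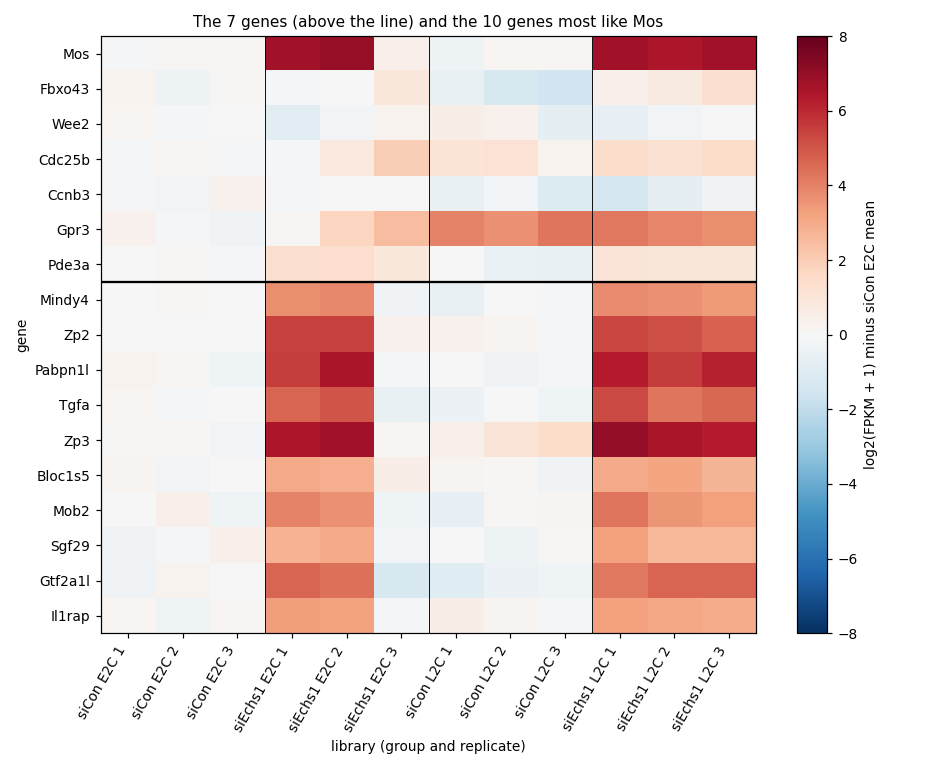
Difference of log2(FPKM + 1) from the siCon E2C mean (colour) in the 12 siRNA libraries (columns) for the 7 genes above the line and the 10 genes most like Mos below it. Mos and its neighbours are high in replicates 1 and 2 of siEchs1 E2C and in the 3 siEchs1 L2C libraries, while Gpr3 is high in all 6 L2C libraries.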

How the data were processed

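Embryo RNA was measured by Smart-seq2 on poly(A) RNA with paired reads of 150 nt, per the labels' protocols. The submitters' processing notes name cutadapt 1.16, STAR and mm10. How reads were counted, and on which annotation, is not given in the sources used here. FPKM values were deposited by the authors in 1 file per library with 55335 genes. Leaving out 216 entries with repeated symbols and 27 symbols turned into dates left 55098. The files hold no counts. On a scale of whole fragments 31.3% to 38.1% of low values fell within 0.15 of an integer, where 30% would do so by chance on a fixed scale. The scale was chosen per library to fit best, which lifts the chance share above 30%. Annotated exon lengths were used, and steps could be missed if the FPKM rest on other lengths.

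Groups came from titles and treatment labels. For replicates 2 and 3 of siEchs1 L2C the file headers number the libraries the other way round, and titles were used. Values were tested as log2(FPKM + 1), which understates changes of low genes, with the trend and robust options of limma 3.58.1 in R 4.3.3, among the 17652 genes that reached 1 FPKM in 3 or more siRNA libraries or the 13789 that did so in 2 or more treatment libraries. All 12 siRNA libraries entered 1 fit and all 6 treatment libraries another, with group as the term. Tests were two-sided, with Benjamini-Hochberg adjustment over all genes of a comparison. A gene was called at an adjusted p under 0.05. Adjusted p-values after the first in a sentence are from the same fit.

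Named were the 7 genes, fixed pathway genes, up to 3 called genes with the smallest adjusted p from each of 5 pathway lists with a mean of at least 5 FPKM, and the 10 genes most like Mos. Members and lists were chosen with earlier results of these data known. Positions and 3′ ends came from GENCODE M21 (mm10), promoters from RefSeq (GRCm38.p6). The 3′ end of 1 member is not reported here. On simulated data changes of 2 on the log2 scale were recovered for 58% of genes at L2C and 71% for crotonate against DMSO. Changes of 1 were recovered for 2% and 1%. The simulated data held far fewer changed genes than the 8611 called at L2C. The adjustment was thus stricter in the simulation, and the L2C shares do not give the recovery of the real test. Alternatives were quantile normalization, no filter, no trend, a pseudocount of 0.1, a replicate block, compared libraries alone and each library left out. Rescaling without mitochondrial and ribosomal RNA and the block with header numbers were chosen after seeing the data. Same-numbered libraries correlated in their deviations at -0.101 to 0.111 in the siRNA experiment and at -0.0957 to 0.16 in the treatment experiment.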

Additional observations from a re-analysis of the deposited data

Results flagged for a closer look

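The siRNA effect differed between the stages, by the test of the difference itself (limma adjusted p under 0.05), for 14 of 100 genes of the pathway lists, against 17.2% of all genes, and for 0 of the 7 members. The naming rule took 11 of the 14. In 8 of these 11 the estimates at the 2 stages also had opposite signs, and in Cdc25c, Rgs2 and Izumo1r they had the same sign. Of the 8, only Espl1 (limma adjusted p = 0.038 at E2C and 0.00527 at L2C) and Rps6ka3 (0.0273 and 0.00281) were called at both stages. The effect was not called at E2C for Cdc20, Cdc23, Ccna2 and Pttg1, nor at L2C for Prkaca and Rps6ka1. Values are siEchs1 effects on the log2 scale, E2C first and L2C second, with their difference and its adjusted p in parentheses.

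Espl1, the separase that opens sister chromatids, stood at 1.29 and -1.62 (difference -2.92, adjusted p = 0.00758), and Pttg1, its inhibitor securin, at -0.58 and 1.61 (2.19, 0.00792). Cdc20, the APC/C activator, stood at 1.16 and -1.69 (-2.85, 0.0108), and the APC/C subunit Cdc23 at 0.37 and -1.60 (-1.97, 0.00815). Cdc25c stood at -0.39 and -3.41 (-3.02, 0.00896), and the cyclin Ccna2 at 0.39 and -1.54 (-1.93, 0.0426). Of the kinases, Rps6ka3 stood at -1.13 and 1.45 (2.58, 0.0055), Rps6ka1 at 1.53 and -0.15 (-1.68, 0.048) and Prkaca, the catalytic subunit of PKA, at 1.33 and -0.69 (-2.02, 0.0202). Rgs2 stood at 0.95 and 4.08 (3.13, 0.0308) and Izumo1r at 1.79 and 3.65 (1.86, 0.0254).

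The call was lost in 9 of the 12 fits that left out 1 library for Ccna2, 10 for Rps6ka1, 8 for Rgs2, 6 for Izumo1r and 4 for Prkaca. The 6 others kept it in those 12 fits and in the other settings.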

How the results depend on the processing

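The L2C calls of Mos, Fbxo43 and Pde3a held in all 12 fits that left out 1 library and in the 8 other settings, and no member reversed. Over all repeats of a member's test under another setting, 28 lost a call, 27 gained one and 1051 did neither. For the named pathway genes 138 lost a call and 41 gained one, and 38 of the losses were in siEchs1 against siCon at E2C, 2 at L2C, 44 in the difference of effects and 50 in the stages of siEchs1. The count of members called, siEchs1 against siCon at E2C, was 2 and became 1 with no filter, 0 with compared libraries alone and 0 to 3 with 1 library left out. The difference of siRNA effects had 0 members, 1 with quantile normalization and 0 to 1 with 1 library left out. L2C against E2C in siCon had 2 members, 4 with quantile normalization, 1 with no filter, 1 after rescaling and 1 to 3 with 1 library left out. In siEchs1 the stage count of 1 became 0 with compared libraries alone. Late siEchs1 against early siCon had 4 members and 2 to 5 with 1 library left out. Crotonate against DMSO had 0 members, 2 with compared libraries alone and 0 to 2 with 1 left out. Acetate against DMSO had 0 to 2, and crotonate against acetate 0 to 3, with 1 left out. The cause of these changes was not tested.

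Same-numbered libraries did not deviate together in the siRNA experiment (1 of 18 pairs over 0.1, with 3 of 12 libraries best matched to their own number). In the treatment experiment 2 of 6 such pairs were over 0.1, both of acetate with crotonate (r = 0.16), and 4 of 6 libraries matched their own number best. With 2 libraries per group the deviations of a group mirror each other, so pairing was not decided there. With the replicate block 2, 3, 0, 2, 1 and 4 members were called in the 6 siRNA comparisons and 0 in the treatment ones, as without it and as with the header numbers.

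Counts over all genes moved more. With 1 library left out they ran from 1748 to 6496 at E2C (3578 with all), 1296 to 4094 for the difference of effects (3039), 1121 to 3473 for the stages in siEchs1 (2572), 0 to 1194 for crotonate against DMSO (73), 1 to 911 for acetate against DMSO (9) and 0 to 1486 for crotonate against acetate (257). Under the other settings the lowest and highest were 1807 and 3966, 1794 and 3230, 827 and 2662, 9 and 1209, 0 and 12, and 9 and 276. Scaling moved the split of higher and lower calls: at E2C 1934 and 1644 became 1695 and 1882 with quantile normalization and 2733 and 1233 after rescaling, and for the stages in siCon 6326 and 2544 became 4192 and 4243, and 7582 and 1918. For the stages in siEchs1 2090 and 482 became 1075 and 785, for the difference of effects 997 and 2042 became 1600 and 1558, and for late siEchs1 against early siCon 5569 and 2779 became 4103 and 4119 with quantile normalization. Read depth is unknown, so no counting error can be given for the low values of Ccnb3 and Pde3a.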

Other observations

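The other members had neighbours of their own over the 12 siRNA libraries, by the same measure as for Mos and given as values chosen after they were seen. Gpr3 had 151 genes at r of 0.95 or more, led by Clptm1 (0.992), Cnppd1 (0.992) and Ranbp3 (0.989). Clptm1 stood at 2.97 to 3.75 FPKM in siCon E2C, 4.26, 12.4 and 26.5 FPKM in siEchs1 E2C, 47.6 to 59.3 FPKM in siCon L2C and 48.8 to 72.7 FPKM in siEchs1 L2C, the same order of the siEchs1 E2C libraries as for Gpr3. Pde3a had 31 such genes, led by Slc35a1 (0.983) and Ccdc3 (0.978), and Cdc25b had 4, led by Triobp (0.972). Wee2 had 1, Tpd52 (0.963). Fbxo43 and Ccnb3 had 0, and their closest genes were Birc3 (0.932) and Cyp2b23 (0.886).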
